A study of Mus musculus with 24 samples.

Results

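RNA sequencing of oocytes from Nlrp14 knockout mice was used to ask what happened to stored messenger RNA between the germinal vesicle (GV) stage, at which the fully grown oocyte rests in meiotic prophase, and metaphase II (MII), at which the mature egg waits for sperm. The comparison used the 3 knockout MII libraries and the 3 knockout GV libraries, 6 of 24 libraries in a series that holds 8 groups at 4 stages, chosen by their labels and by no measured value. Wild-type MII eggs and wild-type GV oocytes, 3 libraries each, were set beside them. The labels give the 4 groups as Nlrp14 KO at MII, Nlrp14 KO at GV, WT at MII and WT at GV, all mouse oocytes, each library made from 5 pooled oocytes and named as 1 of 3 biological replicates. The deleted region, the strain, the age of the females and the collection of the eggs are not given in the sources used here. NLRP14 belongs to the NLR proteins of the oocyte.

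A fully grown mouse oocyte no longer transcribes and lives on the messages it stored while it grew. When meiosis resumes, many of these messages lose their poly(A) tails and are degraded, through the CCR4-NOT deadenylase and its egg adaptor BTG4, while dormant messages that carry a cytoplasmic polyadenylation element gain longer tails and are translated. The products of the recruited messages drive the 2 meiotic divisions, hold the egg at metaphase II and complete the clearance.

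The recruited messages carry their signal near the end of the 3′ untranslated region. The last 150 bases of the annotated 3′ end were read for the 12 recruited messages listed for this comparison. They were searched on the sense strand for the element TTTTAT or TTTTAAT, the latter of which may overlap the polyadenylation signal AATAAA. Of these 12 genes, 6 held a match, and the match nearest to the transcript end in each is shown in capitals with its neighbouring bases, from the GENCODE M21 transcripts on GRCm38, because these 6 messages are followed through the results. Among the windows of all 18292 protein-coding genes with one, 23.4% held a match. The sites lie in the 3′ untranslated region at chr8:22782747-22782771, plus strand (Plat), chr13:100778778-100778799, minus strand (Ccnb1), chr14:30527012-30527036, plus strand (Dcp1a), chr8:40493041-40493064, minus strand (Cnot7), chr8:85308008-85308031, plus strand (Orc6), and chr9:51119800-51119823, plus strand (Btg4).
Plat: atatttataTTTTAATctattttag
Ccnb1: ttgctgTTTTAATttatacatc
Dcp1a: aatatatttTTTTAATaaaatttca
Cnot7: taaggtacaTTTTATatcaataaa
Orc6: ttttttaaaTTTTATttcactaaa
Btg4: taaatccctTTTTATgtcttttta
The windows of Mos (126 bases, its whole 3′ untranslated region), Tpx2, Cnot6l, Slbp, Dazl and Dcp2 held no match to these letters.

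Values are FPKM, a fragment count divided by gene length and by the size of the library. The 12 maturation libraries held 9.23 to 12.3 M fragments, as the spacing of low FPKM values shows. A level in FPKM is a share of the library, and no spike-in is named in the labels, so that a fall in the share of a message and a rise in all others cannot be told apart. Since the kit that made the complementary DNA is known to prime on poly(A) tails, loss of the tail and loss of the message cannot be told apart either. The same holds for a longer tail and more message, and for fewer oocytes and less RNA per oocyte. Knockout GV replicate 3 stood apart from replicates 1 and 2. The slope of log2 level on log2 gene length was -0.28 in it, against -0.10 in both of the others, and 10379 genes reached 1 FPKM in it, against 11542 in replicate 1 and 11264 in replicate 2. Among MII eggs, knockout replicate 2 had a slope of 0.02, against 0.18 in replicate 1 and 0.09 in replicate 3. The main counts, and the named genes whose call depended on knockout GV replicate 3, are given with and without it.

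The labelled cell type was read from the summed level of its markers. All 15 oocyte identity genes passed the filter, which the 3 GV libraries alone can meet. Their summed level was 11845, 13509 and 12581 FPKM in knockout MII eggs, against 14311, 13626 and 12387 FPKM in knockout GV oocytes. Of the 15, 7 were called lower at MII (46.7%) and 3 higher (20%), against 48.2 and 20.8% of all tested genes. The sum thus does not speak for each marker. Of 24 genes that mark granulosa and cumulus cells, 3 passed the filter, and the summed level of the list ran from 20.4 to 30.2 FPKM in knockout MII eggs and from 17.3 to 21.9 FPKM in knockout GV oocytes. The most abundant of the list was Cyp19a1, the aromatase, with 18.1, 20.1 and 19.2 FPKM in knockout MII eggs, against 9.01, 9.98 and 11.8 FPKM in knockout GV oocytes. Of the other 2, the inhibin subunit gene Inha fell (log2 difference -2.21) and Nr5a2 fell (log2 difference -0.58), the call on Nr5a2 being lost after median-of-ratios scaling (adjusted p = 0.336). The granulosa markers Amh and Slc38a3 were at 0 in all 12 libraries. Of 15 markers of blood, stroma and oviduct, 2 passed, of which Pecam1 rose (log2 difference 1.06), a call lost without GV replicate 3 (adjusted p = 0.0892 in limma). The summed level of that list was 9.75, 5.28 and 7.52 FPKM in knockout MII eggs, against 4.76, 3.88 and 3.07 FPKM in knockout GV oocytes, and 7.68, 8.53 and 7.14 FPKM in wild-type MII eggs, against 4.54, 4.84 and 37.7 FPKM in wild-type GV oocytes. Most of the sum in wild-type GV replicate 3 was Lyz2, the lysozyme gene of macrophages, at 32.6 FPKM, against 0.732 and 0.132 FPKM in replicates 1 and 2. The part of such cells in the changes below was not tested.

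Nlrp14 itself, the targeted gene on chromosome 7, had 14.6, 22.9 and 21.3 FPKM in knockout MII eggs, against 22.2, 23.7 and 39.2 FPKM in knockout GV oocytes. Wild-type MII eggs held 380.4, 447 and 345 FPKM, against 1876, 2014 and 1922 FPKM in wild-type GV oocytes. Every knockout library was thus far below every wild-type library at both stages. The residual knockout signal overlapped between the stages (log2 difference -0.49, SE 0.29, adjusted p = 0.166), whereas the wild-type transcript fell by 2.31 on the log2 scale. The difference between the 2 changes was 1.82 with an adjusted p of 0.0638 (limma), and 2.07 with an adjusted p of 0.00625 without knockout GV replicate 3, and the knockout difference had the opposite sign after median-of-ratios scaling (0.11). Which part of the locus the residual reads cover cannot be read from gene-level values.

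Between GV and MII, knockout oocytes lost most of the share held by a large set of messages. Of 10757 genes tested with limma on log2(FPKM + 1) at an adjusted p under 0.05, 7422 were called (69%), of which 5182 were lower in MII eggs (48.2% of genes tested) and 2240 were higher (20.8%). At least 2-fold falls were called for 4515 genes (42%), at least 4-fold falls for 2437 (22.7%) and at least 2-fold rises for 1391 (12.9%). The number of genes at 1 FPKM or more was 8348, 7946 and 8033 in knockout MII eggs, against 11542, 11264 and 10379 in knockout GV oocytes. The 50 most abundant genes took 39.2 to 43.0% of summed FPKM in knockout MII eggs and 24.8 to 28.5% in knockout GV oocytes. The median tested gene differed by -0.61 on the log2 scale, and by -0.15 after median-of-ratios scaling, which called 4346 genes lower and 3460 higher, so that the share of lower genes among those called was 69.8% as deposited and 55.7% after scaling. With the trend on gene length removed from the deposited values, the split was 3724 lower and 3777 higher. Without knockout GV replicate 3 the deposited values gave 5502 lower and 2191 higher.

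**Figure D1:**
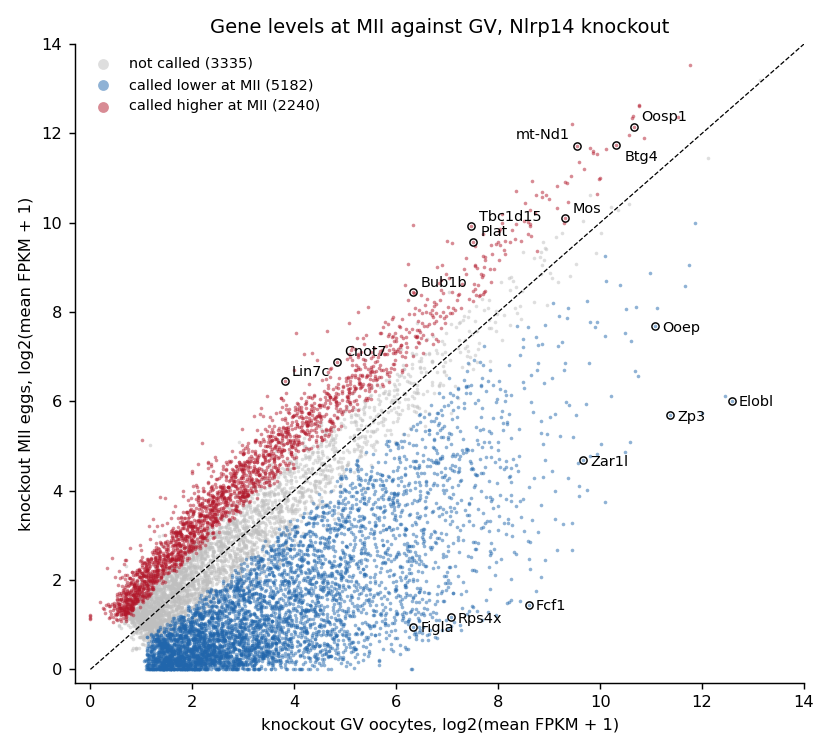
Mean level of each of 10757 tested genes, as log2(mean FPKM + 1), in 3 knockout MII libraries (vertical axis) against 3 knockout GV libraries (horizontal axis), with the dashed line at equal levels and named genes circled. The 5182 genes called lower spread far below the line, and Fcf1, Zp3 and Elobl lie more than 5 log2 units under it, while the 2240 genes called higher form a narrow band above it.

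The 12 largest falls met the rule of a mean of at least 5 FPKM and were those of abundant GV messages. Fcf1, whose product processes ribosomal RNA, had 0.810, 2.39 and 1.95 FPKM in knockout MII eggs, against 253, 301 and 608 FPKM in knockout GV oocytes (log2 difference -7.10, SE 0.39, adjusted p = 4.89e-06). Cpsf4l, a relative of a cleavage and polyadenylation factor, had 1.73, 2.42 and 1.47 FPKM in knockout MII eggs, against 352, 363 and 314 FPKM in knockout GV oocytes (log2 difference -6.92, SE 0.21, adjusted p = 3.44e-06). Elobl, an elongin B-like gene, had 51.2, 70.7 and 69.4 FPKM in knockout MII eggs, against 5573, 5689 and 7066 FPKM in knockout GV oocytes (log2 difference -6.57, SE 0.23, adjusted p = 3.44e-06). In all 3 genes each MII library lay below every GV library, and what remained in MII eggs was 0.443, 0.546 and 1.04% of the GV mean. Acot13, a mitochondrial thioesterase gene, fell by 6.62, Chchd2, a mitochondrial stress-response gene, fell by 6.59, Hint1, a nucleotide hydrolase gene, fell by 6.36 and the spliceosome gene Bud31 fell by 6.15 on the log2 scale. Ninj2 (-6.27), the complex I gene Ndufa9 (-6.11), the uridine phosphorylase gene Upp1 (-6.10), the ribonuclease gene Rnaset2a (-6.05) and the proteasome gene Psmb7 (-6.01) completed the 12. After median-of-ratios scaling these 12 differences lay between -6.57 (Fcf1) and -5.52 (Rnaset2a).

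Among the 12 largest rises, 7 were transcripts of the mitochondrial genome, 6 of them transfer RNA genes. The leucine transfer RNA gene mt-Tl1 had 898, 1091 and 969.6 FPKM in knockout MII eggs, against 54.9, 57.0 and 127 FPKM in knockout GV oocytes (log2 difference 3.72, SE 0.34, adjusted p = 3.86e-05), and mt-Nd4l, a complex I subunit, had 274, 268 and 288 FPKM in knockout MII eggs, against 34.5, 35.5 and 57.7 FPKM in knockout GV oocytes (log2 difference 2.71, SE 0.25, adjusted p = 3.92e-05). Transfer RNA genes are short and lie between longer mitochondrial genes, so fragments of their neighbours may be counted in them. Of the nuclear genes, Lin7c, which encodes a cell polarity scaffold, had 72.6, 101 and 86.7 FPKM in knockout MII eggs, against 11.2, 12.9 and 15.2 FPKM in knockout GV oocytes (log2 difference 2.64, SE 0.22, adjusted p = 2.49e-05). Tbc1d15, which encodes a GTPase-activating protein for Rab7, had 1072, 768 and 1062 FPKM in knockout MII eggs, against 226, 210.0 and 95.04 FPKM in knockout GV oocytes (log2 difference 2.52, SE 0.36, adjusted p = 4.02e-04), and Gtf2a1, a subunit of the general transcription factor TFIIA, rose by 2.51. The rise of Lin7c, Tbc1d15 and Gtf2a1 separated all MII libraries from all GV libraries. Rsc1a1 had 68.9, 37.8 and 50.4 FPKM in knockout MII eggs, against 19.3, 22.04 and 0.124 FPKM in knockout GV oocytes (log2 difference 2.69, SE 1.05, adjusted p = 0.0498). GV replicate 3 was far below the other 2, and without it the difference was 1.26. The call was lost without any 1 of the 3 MII libraries. The symbol Ptp4a1 belongs to 2 gene identifiers in the annotation, and the one among the largest rises (log2 difference 3.997) had 73.5, 14.8 and 13.4 FPKM in knockout MII eggs, against 3.02, 0.00869 and 0.0216 FPKM in knockout GV oocytes, so how its reads were split is uncertain. Its difference was 3.23 without MII replicate 1 and 4.66 without GV replicate 1.

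The recruited messages, several of which encode the clearance machinery, were higher in MII eggs. All 12 dormant messages known for recruitment during maturation rose, against a background of 20.8% higher. Their median log2 difference was 1.57 (all tested genes, -0.61). The list was chosen with earlier results of these data known, so the count is a description and not independent support. In these rises a longer tail and more message cannot be told apart. Btg4, the egg adaptor of the deadenylase, had 3126, 3672 and 3527 FPKM in knockout MII eggs, against 1245, 1231 and 1309 FPKM in knockout GV oocytes (log2 difference 1.44, SE 0.19, adjusted p = 2.67e-04). Cnot7, a catalytic deadenylase subunit, had 147, 98.2 and 108 FPKM in knockout MII eggs, against 26.9, 26.8 and 28.5 FPKM in knockout GV oocytes (log2 difference 2.04, SE 0.22, adjusted p = 8.83e-05). Cnot6l, the other kind of catalytic subunit, had 54.2, 74.5 and 74.1 FPKM in knockout MII eggs, against 23.6, 25.6 and 20.8 FPKM in knockout GV oocytes (log2 difference 1.48, SE 0.22, adjusted p = 4.99e-04). In these 3 genes, 2 of which carry a printed element, no MII library overlapped a GV library. Plat, tissue plasminogen activator and the classical recruited message, had 1022, 483 and 779 FPKM in knockout MII eggs, against 266, 231 and 48.4 FPKM in knockout GV oocytes (log2 difference 2.33, SE 0.63, adjusted p = 0.0111), with GV replicate 3 far below the other 2 GV libraries and a difference of 1.55 without it. Slbp, which binds the stem-loop of histone messages, had 804, 934 and 957 FPKM in knockout MII eggs, against 251, 237 and 285 FPKM in knockout GV oocytes (log2 difference 1.80, SE 0.20, adjusted p = 9.91e-05). The decapping genes Dcp1a and Dcp2 rose by 1.81 and 0.85, the replication origin gene Orc6 by 1.64, the spindle assembly gene Tpx2 by 1.53 and the germ cell translation regulator Dazl by 1.08. Mos, the kinase that starts the MAP kinase cascade of metaphase arrest, showed the smallest rise of the 12, with 915, 1251 and 1112 FPKM in knockout MII eggs, against 756, 666 and 487 FPKM in knockout GV oocytes (log2 difference 0.79, SE 0.24, adjusted p = 0.0201). The call on Mos was lost without GV replicate 2, MII replicate 2 or MII replicate 3. Leaving out each knockout library in turn gave 10 to 12 called rises in the list. All 12 stayed higher after median-of-ratios scaling, with the trend on length removed and without GV replicate 3.

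In the CCR4-NOT list, 20 of 26 genes passed the filter, of which 8 rose (40%) and 4 fell (20%). Over all tested genes 20.8% rose and 48.2% fell. After median-of-ratios scaling 12 of the list rose and 2 fell, where 3460 of all 10757 tested genes rose and 4346 fell. Besides Btg4, Cnot7 and Cnot6l, Btg1 rose by 1.78, the deadenylase gene Pan2 by 1.94, and the subunit genes Cnot9, Cnot8 and Cnot6 by 1.23, 1.18 and 1.15. The antiproliferative adaptor Tob1 fell (0.0794, 0.156 and 0.744 FPKM in knockout MII eggs, against 5.68, 5.03 and 4.64 FPKM in knockout GV oocytes; log2 difference -2.24), as did the poly(A)-specific ribonuclease gene Parn (-1.22), Tob2 (-0.84) and the scaffold gene Cnot1 (-0.80). Both Tob2 and Cnot1 lost their call after scaling. Pabpn1l, the oocyte poly(A)-binding protein that works with BTG4, had 107, 199.7 and 109.5 FPKM in knockout MII eggs, against 199, 197 and 110.4 FPKM in knockout GV oocytes, which overlap (log2 difference -0.29, SE 0.34, adjusted p = 0.466). Its sign depended on the scaling, at 0.33 after median-of-ratios scaling. Zfp36l2, a binder of AU-rich elements, was below the filter, at 0.694, 0.481 and 0.670 FPKM in knockout MII eggs, against 1.23, 0.791 and 0.553 FPKM in knockout GV oocytes.

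Uridylation, decapping and exonuclease genes moved both ways: of 43 listed genes 33 were tested, 12 fell (36.4%) and 9 rose (27.3%), where 48.2% of all tested genes fell and 20.8% rose. The fallers included parts of the LSM ring and of the RNA exosome. Lsm4 had 0, 0.963 and 0.765 FPKM in knockout MII eggs, against 34.8, 31.4 and 31.4 FPKM in knockout GV oocytes (log2 difference -4.47, SE 0.29, adjusted p = 8.67e-06), the exosome gene Exosc4 had 2.85, 2.01 and 1.57 FPKM in knockout MII eggs, against 28.3, 26.5 and 23.0 FPKM in knockout GV oocytes (log2 difference -3.11, SE 0.23, adjusted p = 1.35e-05), and Exosc5 and Lsm6 differed by -2.57 and -1.97. The nonsense-decay helicase Upf1, the nuclear exonuclease Xrn2 and the decapping activator Patl1 rose by 1.93, 1.92 and 0.98. Of the maternal mRNA storage list, 25 of 33 genes were tested, 11 fell (44.0%) and 5 rose (20.0%), which is close to the shares over all tested genes (48.2 and 20.8%). Without GV replicate 3, 14 fell and 5 rose (all 10757 tested genes, 5502 and 2191). Zar1l, a relative of the storage protein ZAR1, had 20.1, 28.1 and 25.6 FPKM in knockout MII eggs, against 713, 793 and 917 FPKM in knockout GV oocytes (log2 difference -4.99, SE 0.22, adjusted p = 3.51e-06), and Gtsf1, a small RNA pathway gene of germ cells, had 8.63, 10.1 and 10.004 FPKM in knockout MII eggs, against 251, 316 and 472 FPKM in knockout GV oocytes (log2 difference -4.99, SE 0.27, adjusted p = 4.78e-06). Ybx2, the oocyte protein that coats stored messages, had 0.842, 0.878 and 0.452 FPKM in knockout MII eggs, against 17.9, 16.5 and 8.47 FPKM in knockout GV oocytes (log2 difference -3.10, SE 0.30, adjusted p = 5.83e-05). These 3 separated the stages completely. Eif4e2 and Ybx3 fell by 3.05 and 2.03, while Lsm14a, of the RNA granule, and Tent2, a cytoplasmic poly(A) polymerase gene, rose by 1.72 and 1.51. Zar1 had 128, 109 and 79.0 FPKM in knockout MII eggs, against 239.5, 215 and 90.4 FPKM in knockout GV oocytes, with GV replicate 3 below 2 of the MII libraries, and was not called (log2 difference -0.69, SE 0.39, adjusted p = 0.153), but was called without that library (log2 difference -1.13, adjusted p = 0.00537). After median-of-ratios scaling the storage list held 9 lower and 9 higher genes, with a median of -0.09. All 10757 tested genes then held 4346 lower and 3460 higher, with a median of -0.15.

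**Figure D2:**
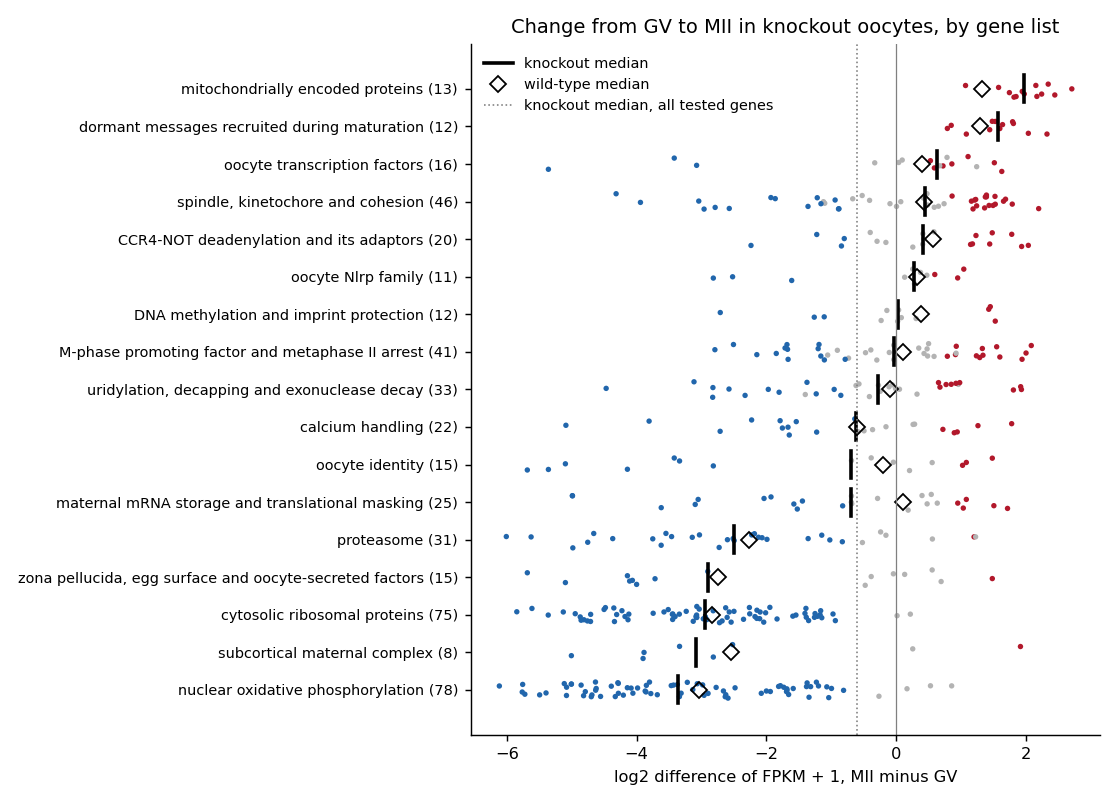
Each point is 1 tested gene of a list, placed by its log2 difference between knockout MII and knockout GV libraries (horizontal axis), blue where called lower, red where called higher and grey where not called, with the number tested in brackets. Bars mark the knockout median and diamonds the wild-type median, over the members tested in each genotype. The mitochondrially encoded and dormant lists lie wholly to the right of 0, and the nuclear oxidative phosphorylation, ribosomal protein and subcortical maternal complex lists have medians near or below -2.9.

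The regulators of metaphase II arrest divided by gene. Of 46 listed, 41 were tested, 12 rose (29.3%, against 20.8% of all tested genes) and 13 fell (31.7%, against 48.2%). After median-of-ratios scaling 19 rose and 11 fell (all 10757 tested genes, 3460 and 4346). Without GV replicate 3, 11 rose and 17 fell (all tested genes, 2191 and 5502). Ccnb1, the cyclin B of M-phase promoting factor, had 377, 282 and 419 FPKM in knockout MII eggs, against 132, 122 and 96.9 FPKM in knockout GV oocytes (log2 difference 1.60, SE 0.24, adjusted p = 5.26e-04). Fbxo43, which encodes the EMI2 inhibitor that holds the egg at metaphase II, had 51.7, 28.3 and 33.2 FPKM in knockout MII eggs, against 11.6, 11.6 and 4.17 FPKM in knockout GV oocytes (log2 difference 2.00, SE 0.40, adjusted p = 0.00256). Wee2, the oocyte kinase that restrains CDK1, had 308, 185 and 256 FPKM in knockout MII eggs, against 155, 165 and 84.0 FPKM in knockout GV oocytes (log2 difference 0.92, SE 0.32, adjusted p = 0.0343). For each of these genes every MII library exceeded every GV library, but the call on Wee2 was lost without GV replicate 3 (difference 0.61), MII replicate 1 or MII replicate 3. Ccna2 (2.09), the MAP kinase kinase gene Map2k1 (1.94) and Cdc20 (1.55), the activator of the anaphase-promoting complex, also rose. Fbxo5, which encodes the related inhibitor EMI1, had 14.1, 11.01 and 11.7 FPKM in knockout MII eggs, against 94.3, 92.4 and 46.7 FPKM in knockout GV oocytes (log2 difference -2.51, SE 0.31, adjusted p = 1.85e-04). Cdc25c, the CDK1-activating phosphatase of somatic cells, Wee1 and the ubiquitin ligase subunit Anapc11 differed by -1.66, -1.68 and -1.71, and Cdk1 by -1.20, a call lost after median-of-ratios scaling.

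Spindle, kinetochore and cohesion genes gave 18 rises (39.1%) and 14 falls (30.4%) among 46 tested of 49, against 20.8 and 48.2% of all tested genes. After median-of-ratios scaling they gave 24 rises and 8 falls, where all 10757 tested genes gave 3460 rises and 4346 falls. Bub1b, which encodes the checkpoint kinase BUBR1, rose by 2.20, the kinesin gene Kif20a by 1.79, the midzone gene Prc1 by 1.69 and the centromere protector Sgo2a by 1.66. Tacc3, a protein of the acentriolar spindle, had 18.3, 11.1 and 12.2 FPKM in knockout MII eggs, against 358, 362 and 186 FPKM in knockout GV oocytes (log2 difference -4.31, SE 0.33, adjusted p = 1.60e-05). Birc5, which encodes survivin of the chromosomal passenger complex, had 31.0, 51.4 and 39.9 FPKM in knockout MII eggs, against 304, 318 and 391 FPKM in knockout GV oocytes (log2 difference -3.04, SE 0.25, adjusted p = 2.19e-05). Haus1 of the augmin complex and the kinetochore gene Spc24 fell by 3.94 and 2.79. Partners in 1 complex thus moved apart: Cdca8, which encodes another passenger subunit, rose by 1.16, while Birc5 fell, and Ndc80 rose by 1.43, while its partner Spc24 fell.

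In the subcortical maternal complex, a cortical assembly needed for cleavage, 6 of 8 genes fell (75%) and 1 rose (12.5%). Over all tested genes 48.2% fell and 20.8% rose. The median log2 difference was -3.08 for the complex, against -0.61 for all tested genes. Khdc3 had 2.83, 3.51 and 2.65 FPKM in knockout MII eggs, against 152, 133 and 100.2 FPKM in knockout GV oocytes (log2 difference -5.00, SE 0.23, adjusted p = 3.57e-06). Ooep had 191, 205 and 216 FPKM in knockout MII eggs, against 1636, 1742 and 3103 FPKM in knockout GV oocytes (log2 difference -3.34, SE 0.28, adjusted p = 2.61e-05), and Tle6, Padi6 and Nlrp5 differed by -3.90, -3.88 and -2.82, Tle6 by -4.51 without GV replicate 3. Zbed3 rose by 1.92, and Nlrp4f joined it after median-of-ratios scaling (0.88). The related oocyte Nlrp genes divided, since of 11 tested Nlrp5, Nlrp2 (-2.52) and Nlrp9b (-1.61) fell while Nlrp4a (0.95), Nlrp4b (0.60) and Nlrp4g (1.05) rose, the call on Nlrp4a being lost without MII replicate 3. Each direction held 27.3% of the 11, against 48.2% lower and 20.8% higher over all tested genes. Leaving out each knockout library in turn gave 0 to 3 rises in this list, so the rises depended on single libraries. The falls stayed at 3. Over all tested genes the same fits gave 1768 to 2191 rises. After median-of-ratios scaling 8 of the 11 were called higher and the same number as before, 3, lower. Of all 10757 tested genes, 3460 were then higher and 4346 lower. The Nlrp4 and Nlrp9 genes are near-identical copies in part, so their values may share reads.

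The zona pellucida and secreted factor list gave 8 falls (53.3%, where 48.2% of all tested genes fell) and 1 rise (6.67%, where 20.8% rose) among 15 genes. Zp3, the zona protein to which sperm bind, had 52.9, 55.8 and 43.0 FPKM in knockout MII eggs, against 3029.8, 2735 and 2203 FPKM in knockout GV oocytes (log2 difference -5.68, SE 0.22, adjusted p = 3.44e-06), and Zp2 had 28.6, 27.0 and 26.7 FPKM in knockout MII eggs, against 1111, 1002 and 822 FPKM in knockout GV oocytes (log2 difference -5.10, SE 0.21, adjusted p = 3.44e-06). The highest MII level of both genes was far below the lowest GV level. Zp1 (-4.14), the tetraspanin gene Cd9 (-4.11), the gap junction gene Gja4 (-4.06), Fgf8 (-3.999) and Izumo1r (-3.71), which encodes the sperm receptor JUNO, fell too. Gdf9 (0.56) and Bmp15 (-0.38), growth factors that act on the cumulus cells, did not pass the test as deposited, though Gdf9 did after median-of-ratios scaling (1.19), and Oosp1 rose (3203, 5938 and 4455 FPKM in knockout MII eggs, against 1439, 1207 and 2223 FPKM in knockout GV oocytes; log2 difference 1.48). Of the list of oocyte transcription factors, 16 of 20 were tested, 3 fell (18.8%) and 7 rose (43.8%), against 48.2 and 20.8% of all tested genes. After median-of-ratios scaling 11 of the list rose, and 3460 of all 10757 tested genes. Leaving out each knockout library in turn gave 3 to 7 rises in the list, and 1768 to 2191 over all tested genes. Figla, the factor that switches on the zona genes, had 0.659, 1.30 and 0.882 FPKM in knockout MII eggs, against 75.8, 63.9 and 98.3 FPKM in knockout GV oocytes (log2 difference -5.36, SE 0.25, adjusted p = 3.57e-06). Nobox and Lhx8, which drive the primordial follicle programme, fell by 3.42 and 3.07, with Nobox at -4.08 without GV replicate 3. Sall4 rose by 1.52, and Tcl1, which was placed in this list but does not encode a DNA-binding factor, rose by 1.63.

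Housekeeping messages of translation, respiration and protein turnover fell almost as a block, where 48.2% of all tested genes fell and 20.8% rose. Of 75 cytosolic ribosomal protein genes tested, 73 fell and none rose, and their summed level was 227.5 ± 49.4 FPKM in knockout MII eggs and 2813 ± 655 FPKM in knockout GV oocytes (SD, n = 3 each). Rps4x had 0.883, 1.41 and 1.45 FPKM in knockout MII eggs, against 101, 105 and 193 FPKM in knockout GV oocytes (log2 difference -5.85, SE 0.30, adjusted p = 4.26e-06), and Rps9, Rpl35 and Rpl39 differed by -4.71, -4.76 and -5.61. Ribosomal protein genes have many processed pseudogenes, with which reads may be shared. Nuclear genes of oxidative phosphorylation gave 74 falls and no rise among 78, with a summed level of 871 ± 157 FPKM in knockout MII eggs and 5887 ± 1410 FPKM in knockout GV oocytes. Sdhd, a subunit of complex II, had 3.76, 5.88 and 5.45 FPKM in knockout MII eggs, against 283, 285 and 409 FPKM in knockout GV oocytes (log2 difference -5.76, SE 0.25, adjusted p = 3.51e-06), and the complex I genes Ndufs7 and Ndufv2 fell by 5.08 and 4.14. Of 31 proteasome genes 25 fell and 1 rose (21 and 3 after median-of-ratios scaling), with Psmc2 at 1.06, 0.407 and 0.914 FPKM in knockout MII eggs, against 77.7, 87.3 and 94.98 FPKM in knockout GV oocytes (log2 difference -5.63, SE 0.23, adjusted p = 3.44e-06). After median-of-ratios scaling the ribosomal list gave 70 falls and 0 rises, and the oxidative phosphorylation list 67 falls and 2 rises. All tested genes then gave 4346 falls and 3460 rises. With the trend on length removed the falls numbered 60 ribosomal, 63 oxidative phosphorylation and 21 proteasome genes, and 3724 over all genes tested. The rises then numbered 1, 2 and 3 in the same lists, and 3777 over all genes tested.

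Mitochondrially encoded proteins moved the opposite way to their nuclear partners. All 13 rose, where 20.8% of all tested genes did. Their summed level was 28598 ± 3839 FPKM in knockout MII eggs and 8057 ± 3625 FPKM in knockout GV oocytes (SD, n = 3 each). In wild type the sum was 18025 ± 1767 FPKM at MII and 7814 ± 575 FPKM at GV. The complex I subunit mt-Nd1 had 3219, 3497 and 3311 FPKM in knockout MII eggs, against 549, 563 and 1128 FPKM in knockout GV oocytes (log2 difference 2.25, SE 0.30, adjusted p = 3.30e-04). Genes annotated to the mitochondrial chromosome took 9.04, 9.72 and 9.17% of summed FPKM in the 3 MII libraries, against 1.72, 1.78 and 2.91% in the 3 GV libraries. The predicted gene Gm28437 had means of 2029 FPKM in knockout MII eggs and 1010 FPKM in knockout GV oocytes, close to those of mt-Co3 (2061 and 1024 FPKM). Whether such predicted genes share reads with mitochondrial genes was not tested. With all values rescaled without the mitochondrial genes, the calls were 4697 lower and 2668 higher.

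Calcium handling and DNA methylation genes, followed because egg activation and imprint maintenance need their products, were mixed. In the calcium list 11 fell (50%) and 5 rose (22.7%) among 22 tested of 34, close to the shares over all tested genes (48.2 and 20.8%). Calm2, which encodes the calcium sensor calmodulin, had 10.1, 20.2 and 14.7 FPKM in knockout MII eggs, against 444, 410.3 and 797 FPKM in knockout GV oocytes (log2 difference -5.09, SE 0.34, adjusted p = 9.89e-06), and Calm3 differed by -1.66. The mitochondrial calcium uniporter gene Mcu rose by 1.78, Vdac3 and the plasma membrane channel gene Orai1 fell by 3.81 and 2.71, and Slc8b1, a mitochondrial sodium-calcium exchanger gene, was listed at 0 in all 6 knockout libraries. Of the DNA methylation list, 3 rose and 3 fell among 12 tested of 17 (25% each, against 20.8 and 48.2% of all tested genes). Of the falls 1 remained after median-of-ratios scaling, that of Dnmt3l. Dnmt3l, the cofactor of de novo methylation in growing oocytes, had 3.75, 4.56 and 2.07 FPKM in knockout MII eggs, against 39.9, 40.4 and 12.4 FPKM in knockout GV oocytes (log2 difference -2.71, SE 0.47, adjusted p = 0.00118), while the remodeller gene Hells, the dioxygenase gene Tet3 and the imprint-protecting Trim28 rose by 1.53, 1.45 and 1.43. Uhrf1, which guides maintenance methylation, had 32.0, 19.4 and 21.8 FPKM in knockout MII eggs, against 34.2, 34.6 and 15.4 FPKM in knockout GV oocytes and was not called (log2 difference -0.14, SE 0.36, adjusted p = 0.736).

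**Figure D3:**
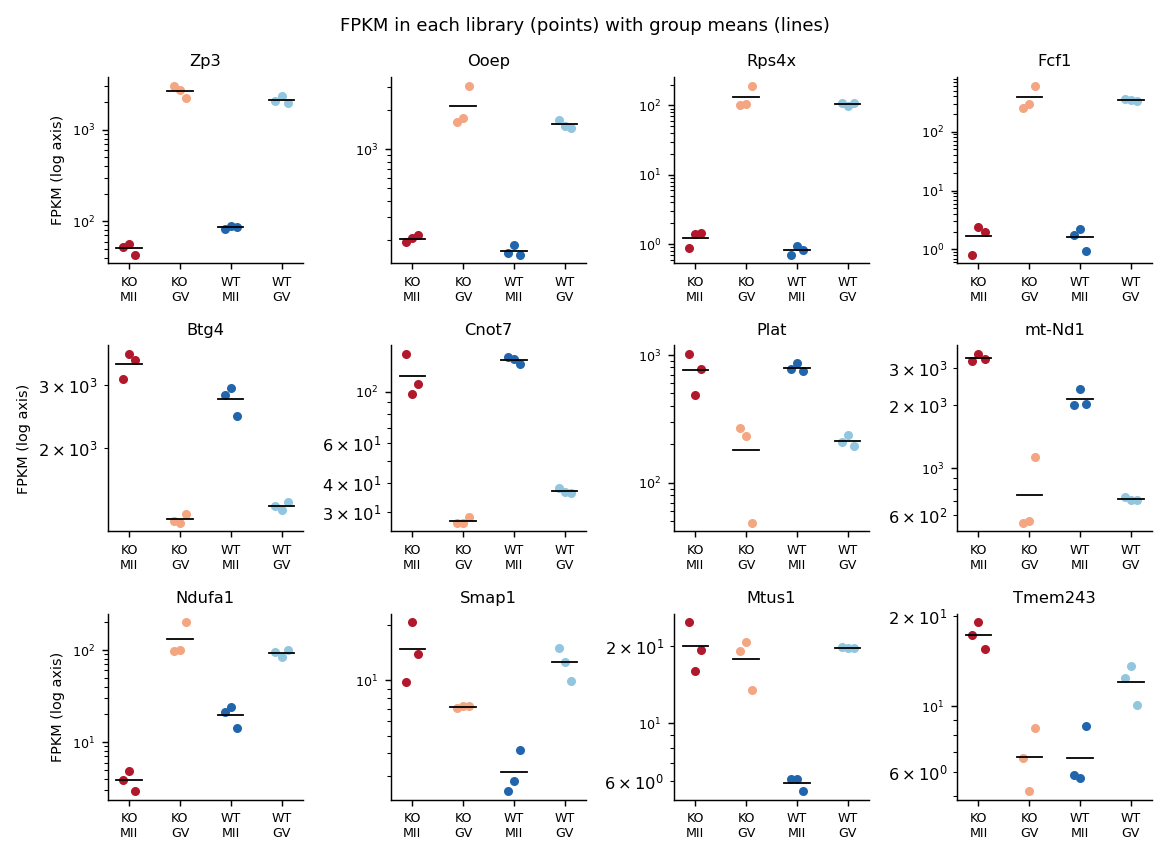
FPKM of 12 genes (log axes that do not start at 0) in every library of knockout MII, knockout GV, wild-type MII and wild-type GV, with a line at each group mean. Zp3, Ooep, Rps4x and Fcf1 are low at MII in both genotypes and Btg4, Cnot7, Plat and mt-Nd1 are high, whereas Ndufa1, Smap1, Mtus1 and Tmem243 changed differently in the genotypes.

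Genes lost in knockout oocytes were largely the genes lost in wild type. Over 10460 genes tested in both genotypes, the knockout change and the wild-type change correlated across genes with r = 0.973 and rho = 0.969, a description over genes that share a library preparation and are not independent replicates. Falls of at least 2-fold were called in wild type for 4637 of the 11610 genes tested there (39.9%). Of the 4637, only 4292 also passed the filter in knockout oocytes and could be compared. Of these 4292, 4202 (97.9%) were called lower in knockout oocytes, where 48.2% of all tested genes were, and 1 was called higher. The median of these genes was -2.18 in knockout and -2.10 in wild type. Falls of at least 4-fold were called in wild type for 2327 of 11610 genes (20%), of which 2316 were tested in both genotypes. Of these, 2310 (99.7%) were called lower in knockout oocytes, with medians of -2.95 in knockout and -2.89 in wild type. Read the other way, 4409 of the genes tested in both genotypes fell at least 2-fold in knockout oocytes. Of them, 4372 (99.2%) were called lower in wild type. Rises of at least 2-fold were called in wild type for 1491 of 11610 genes (12.8%), of which 1459 were tested in both genotypes. Of these 1459, 1217 (83.4%) were called higher in knockout oocytes, and 1457 had a positive difference there. Wild type itself gave 9751 called genes of 11610 tested (84%), 6135 lower (52.8%) and 3616 higher (31.1%).

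Whether a gene changed by a different amount in the genotypes was tested as an interaction over all 12 libraries. Of 12478 genes, 15 were called (0.12%), 9 with a lower change in knockout oocytes (0.0721%) and 6 with a higher one (0.0481%), and 829 had an unadjusted p under 0.05. The median SE of the difference was 0.30 and the median 95% interval reached 0.65 to either side. The interval lay within 1 log2 unit of 0 for 60.1% of genes and within 2 log2 units for 97.2%. Of the 4637 genes that fell at least 2-fold in wild type, the figures were 59.7% and 98.0%. Missing the threshold does not show that the changes were equal. The count of 15 depended on knockout GV replicate 3, without which 122 genes were called (68 lower, 54 higher), the 15 among them. Those 122, of 12478 tested, included 8 of the 13 mitochondrially encoded proteins, all with the larger rise in knockout. Among the 68 lower were Zp3, Nlrp5 and Haus1, with the larger fall in knockout. Nlrp14, with the smaller fall, was among the 54 higher. Of the other lists, nuclear oxidative phosphorylation held 2 of its 78 members, both lower. The cytosolic ribosomal protein, proteasome and CCR4-NOT lists held 0. Without both doubted libraries the count was 102, without wild-type GV replicate 3 it was 16, and it fell to 2 without knockout MII replicate 3, wild-type GV replicate 1 or wild-type GV replicate 2, and to 4 without wild-type MII replicate 2.

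**Figure D4:**
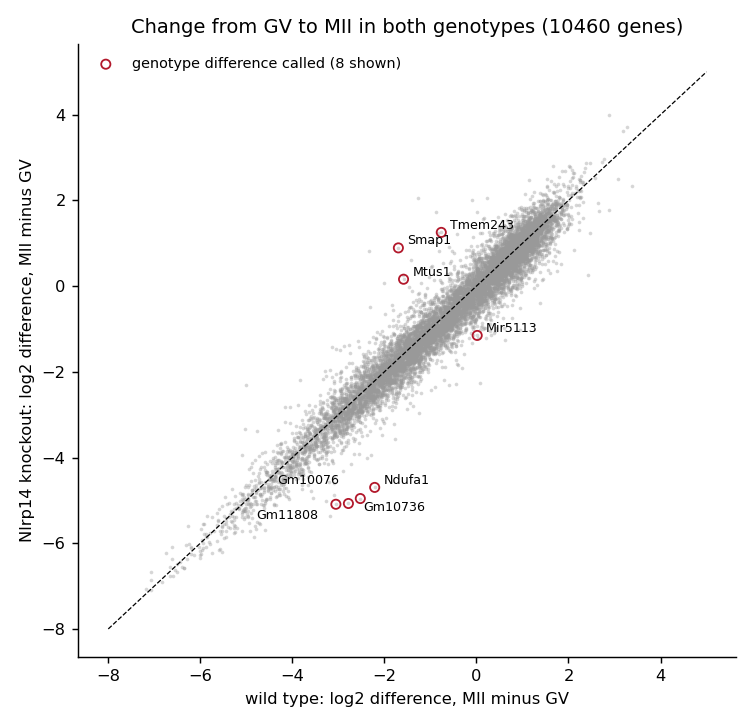
Log2 difference between MII and GV for 10460 genes in knockout (vertical axis) against wild type (horizontal axis), with the dashed line at equal change. Points lie close to the line over the whole range, and the circles mark the 8 genes with a called genotype difference that were tested in both genotypes.

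The 5 genes of the interaction named by rule included 1 with a deeper fall in knockout. Ndufa1, a complex I subunit gene on the X chromosome, had 3.90, 4.90 and 2.93 FPKM in knockout MII eggs, against 96.8, 99.5 and 201 FPKM in knockout GV oocytes. In wild type it had 21.3, 23.9 and 14.2 FPKM at MII, against 96.3, 84.0 and 99.99 FPKM at GV. Its log2 difference was -4.70 in knockout and -2.21 in wild type, a difference of -2.49 (SE 0.40, adjusted p = 0.0414), and the GV levels overlapped between the genotypes, so that the MII level set the 2 genotypes apart. The call was lost after median-of-ratios scaling.

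The other 4 had a higher change in knockout. Smap1, which encodes a GTPase-activating protein for ARF6, rose in knockout and fell in wild type, a rise whose call was lost without GV replicate 1 or 2 or MII replicate 2 or 3. It had 9.73, 20.7 and 13.8 FPKM in knockout MII eggs, against 7.02, 7.19 and 7.19 FPKM in knockout GV oocytes. Wild-type values were 2.49, 2.82 and 4.196 FPKM at MII, against 15.0, 12.5 and 9.92 FPKM at GV, which gives changes of 0.89 in knockout and -1.70 in wild type (difference 2.59, SE 0.35, adjusted p = 0.0146). Tmem243, a membrane protein gene, had 17.3, 19.1 and 15.5 FPKM in knockout MII eggs, against 6.70, 5.18 and 8.43 FPKM in knockout GV oocytes, and 5.90, 5.73 and 8.55 FPKM at MII, against 12.4, 13.6 and 10.1 FPKM at GV, in wild type (difference 2.02, SE 0.28, adjusted p = 0.0146). For Mtus1, a microtubule-associated gene, knockout MII eggs held 24.7, 15.9 and 19.3 FPKM, against 19.1, 20.6 and 13.5 FPKM in knockout GV oocytes, and it fell in wild type, with 6.10, 6.07 and 5.46 FPKM at MII, against 19.8, 19.5 and 19.5 FPKM at GV (difference 1.74, SE 0.26, adjusted p = 0.0249). Zglp1, a germ cell GATA-like factor gene, was at 0.0644, 0.0633 and 0.0670 FPKM in knockout MII eggs, against 0.150, 0.185 and 0.230 FPKM in knockout GV oocytes, too low for the knockout test. It fell in wild type, with 0.0720, 0.502 and 0.0577 FPKM at MII, against 5.05, 5.77 and 4.42 FPKM at GV (difference between genotypes 2.19, SE 0.22, adjusted p = 0.00205). It overlaps Gm49373, which showed the reverse, with 7.38, 8.70 and 6.63 FPKM in knockout GV oocytes and 0.743, 0.401 and 0.760 FPKM in wild-type GV oocytes, so that the reads of the pair may have been divided differently. With 1 library left out, the differences ran from 2.33 to 2.83 (Smap1), 1.86 to 2.18 (Tmem243), 1.57 to 1.89 (Mtus1), 2.10 to 2.35 (Zglp1) and -2.70 to -2.14 (Ndufa1), and each of these except Zglp1 lost its call in at least 1 such fit.

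Messages that fell and rose also differed in build. Genes that fell at least 4-fold in knockout oocytes had a median exon length of 1577 bases, a median 3′ untranslated region of 341 bases and a median GC content at the last codon position of 61.9%. Genes that rose at least 2-fold had medians of 4012 bases, 1220 bases and 52.5%, and all tested genes had 2731 bases, 822 bases and 56.8%. Genes that fell at least 2-fold had 1822 bases, 426 bases and 60.8%. With the length trend removed, the median exon length no longer differed, at 2377 bases for falls and 2378 bases for rises of at least 2-fold. The 3′ untranslated region was then 481 against 925 bases, and the GC content 60.8 against 54.6%. The polyadenylation element printed above lay in the last 150 bases of 11.7% of 1180 genes that fell at least 4-fold, 29.7% of 2303 genes not called and 49.2% of 1045 genes that rose at least 2-fold. The same letters read backward (TATTTT or TAATTTT), which are not known as an element, also showed a gradient, at 16.4, 32.0 and 45.0% of the 3 classes. The median A+T content of the windows climbed with it, at 58.0, 64.7 and 68.0%, and its part in the gradient was not tested. When the genes were split into 3 equal groups by the length of the 3′ untranslated region, the element was more frequent in genes that rose at least 2-fold than in those that fell at least 2-fold, at 59.7 against 13.4% in the shortest group, 49.7 against 12.8% in the middle and 43.0 against 16.7% in the longest group. A match is a run of letters and not a tested site. In wild type the shares were 45.7% of genes that rose at least 2-fold and 13.8% of those that fell at least 2-fold.

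**Figure D5:**
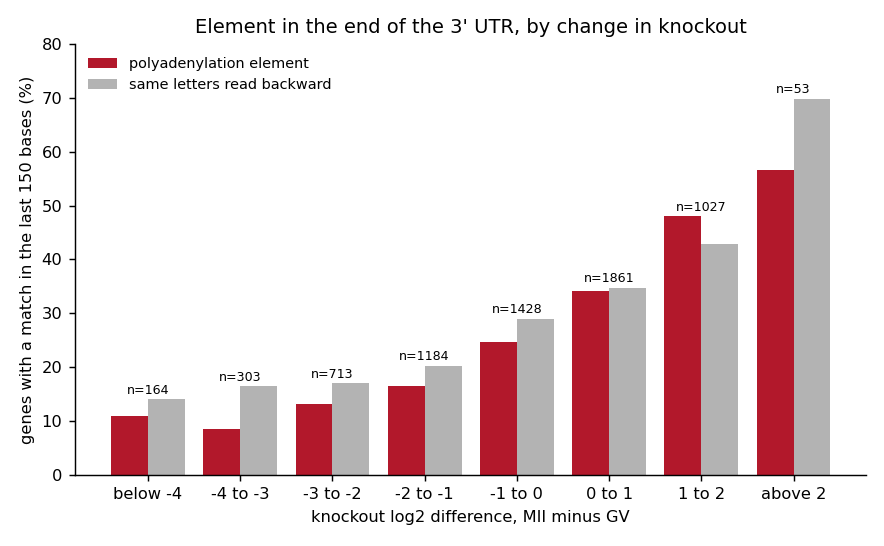
Percent of genes with the polyadenylation element (red) or the same letters read backward (grey) in the last 150 bases of the 3′ end, by the log2 difference between knockout MII and knockout GV, with the number of genes above each pair. Both shares are low on the left and high on the right, and the element is above its backward version in the bin from 1 to 2, at 48.0 against 42.9%, and below it in the bin above 2, which holds 53 genes.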

How the data were processed

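Each library held 5 oocytes, and SMART-Seq HT was the kit for complementary DNA, as the labels state. The authors deposited FPKM values for 55487 genes per library. StringTie and the build GRCm38 are named per the submitters' processing notes, and its version, the aligner and the annotation release are not given in the sources used here. For single-transcript genes, 98.8 to 99.2% of low values were whole multiples (up to 30, tolerance 0.02) of 1 step per library, which gave the depth. Because genes with several transcripts lack such steps, counts could not be recovered for all genes and limma was used.

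Symbols and lengths came from GENCODE M21 (55227 of 55487 identifiers). Genes reaching 1 FPKM in 3 or more of the fitted libraries were tested with limma 3.58.1 (R 4.3.3, trend and robust settings) on log2(FPKM + 1), without a replicate block, and called at a Benjamini-Hochberg adjusted p under 0.05. The comparisons were knockout MII minus GV (6 libraries), wild-type MII minus GV (6) and the difference of these changes (12). The scale understates changes of low genes. The fit was tested on simulated data. Figures used matplotlib 3.10.9.

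The members and the 19 gene lists were chosen with earlier results of these data known. Named genes were Nlrp14, the 12 largest called falls and rises with separated groups and a mean of at least 5 FPKM (no predicted genes), up to 6 interaction genes per direction, up to 4 of each list by smallest p and 14 fixed genes, and other members are described within their lists. Alternatives were median-of-ratios scaling, TPM, rescaling without mitochondrial genes, removal of the length trend, a pseudocount of 0.1, other filters, a replicate block, all 24 libraries in 1 fit and leaving out each library. The labels call the libraries biological replicates, and p-values measure the spread between them.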

Additional observations from a re-analysis of the deposited data

Results flagged for a closer look

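A change between GV and MII that differed between knockout and wild type was called for 15 genes by the interaction in limma. Of those with an annotated function, the difference was 2.59 for Smap1, 2.19 for Zglp1, 2.02 for Tmem243, 1.74 for Mtus1 and -2.49 for Ndufa1. The other 10 lay outside the rule for named genes and were listed after their values were seen. The difference was -2.43 for Gm10076, -2.34 for Gm49373, -2.29 for Gm10736, -2.04 for Gm11808 and -1.94 for Gm13962. Gm10736 is 78 bases long, and its value rests on 2, 2 and 1 fragments in knockout MII eggs, against 7, 8 and 8 in wild-type MII eggs. Gm10076 had 1.66, 0.815 and 1.23 FPKM in knockout MII eggs, against 59.1, 59.5 and 87.9 FPKM in knockout GV oocytes, and 9.13, 11.2 and 6.47 FPKM at MII, against 58.0, 50.5 and 56.7 FPKM at GV, in wild type, a pattern close to that of Ndufa1.

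Esp4 had a difference of 1.51, and was listed at 0 at MII in both genotypes and at 0.191, 0.158 and 0 FPKM in knockout GV oocytes, against 2.61, 2.35 and 1.63 FPKM in wild-type GV oocytes. The microRNA genes Mir6997 (-1.18), Mir5113 (-1.17), Mir6359 (-1.08) and Mir3473a (1.12) are 71 to 82 bases long, and every value above 0 in them equals 1 fragment in that library, so that these 4 calls rest on single fragments.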

How the results depend on the processing

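Knockout falls numbered 5182, and 2625 with a mean of at least 5 FPKM. Knockout rises numbered 2240, and 3460 after median-of-ratios scaling, 3777 with the length trend removed and 1481 with the mean filter. Wild-type falls and rises were 2978 and 2171 with that filter, which tests fewer genes. The 15 interaction calls became 46 with no filter on low values, 7 with the mean filter and 102 without both doubted libraries. Leaving out each library in turn gave 4792 to 5502 knockout falls, 1768 to 2191 rises and 2 to 122 interaction calls. The count of 2 came without knockout MII replicate 3, wild-type GV replicate 1 or wild-type GV replicate 2, 4 came without wild-type MII replicate 2, and the cause was not tested.

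Genes called lower in wild type and also tested in knockout oocytes had a knockout median of -1.82, which was -2.18 for wild-type falls of at least 2-fold and -2.95 for at least 4-fold. Of 95 named genes called in knockout maturation, 88 kept call and direction in every setting run. The others were Rsc1a1, Smap1, Nlrp4a, Nr5a2, Pecam1, Mos and Wee2. Signs turned for genes that were not called: Nlrp14 to 0.11 after median-of-ratios scaling and 0.11 with the length trend removed, Mtus1 to -0.0479 with the length trend removed and -0.0133 without knockout GV replicate 3, and Pabpn1l to 0.33 after median-of-ratios scaling, 0.0182 without mitochondrial genes and 0.95 with the length trend removed. Uhrf1 turned to 0.46 after median-of-ratios scaling, 0.0571 as TPM, 0.16 without mitochondrial genes, 0.30 with the length trend removed and 0.0018 to 0.048 without 1 of 3 knockout libraries.

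Whether equal replicate numbers pair the samples is not given in the labels. Same-numbered libraries correlated in their deviations from the group means at 0.63, -0.51 and 0.24 in knockout and 0.0137, -0.0341 and -0.0721 in wild type. Deviations within groups of 3 are bound to offset one another, and knockout GV replicate 3 stood apart. These values therefore cannot settle whether the samples were paired. A replicate block gave 2 interaction calls. Genes near 1 FPKM rest on about 10 fragments per kilobase, which limits what can be said of them.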
